A study of Mus musculus with 2 samples.

Results

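The mir-29 family of the mouse has 4 microRNA genes, Mir29a, Mir29b-1, Mir29b-2 and Mir29c, and all 4 were found among the 2202 microRNA genes counted in each of 2 heart libraries. They were chosen by name, through the Ensembl gene identifiers of GENCODE release M21 on build mm10, and not by their values. The libraries held small RNA (labelled size range under 30, unit not stated) from the heart of adult female mice with the strain label 5xFAD/CAST, aged 8 to 10 months. Both belong to a single group, as biological replicates 1 and 2, and the series has no control, no other genotype and no treatment. 5xFAD is a mouse line with human transgenes of familial Alzheimer disease under a promoter active in neurons, and CAST is a wild-derived inbred strain of the castaneus subspecies. The labels do not say whether the sampled mice carried the transgenes. They give both libraries 1 donor identifier and separate biosample identifiers. Whether the libraries come from separate animals is not stated, so spread between animals and technical spread cannot be told apart here. P-values below measure departure from counting error between these 2 libraries and compare no conditions.

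MicroRNAs are short RNAs cut from a hairpin precursor. Bases 2 to 8 of the mature strand, the seed, pair with matching sites in the 3' untranslated region (UTR) of target mRNAs, which lowers their translation and stability. The mir-29 family is known for targeting mRNAs of collagens and other matrix proteins, and in the heart it has been studied as a brake on fibrosis after infarction. No mRNA was measured in these libraries, so collagen levels are not known here.

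The mature sequences show which members can be told apart by a read. They were taken from RefSeq (build GRCm38.p6), where all 4 genes matched by symbol and each hairpin was identical to the precursor in release M21. The 3p arms, which carry the family's known targeting activity, are given 5' to 3' with the seed in capitals.
miR-29a-3p (Mir29a): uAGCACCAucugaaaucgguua
miR-29b-3p (Mir29b-1 and Mir29b-2): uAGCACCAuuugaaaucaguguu
miR-29c-3p (Mir29c): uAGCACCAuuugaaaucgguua
All 4 genes thus share the seed AGCACCA, and no other gene among the 1738 mature entries of the table has it. Counted from 1 at the 5' end, miR-29c-3p differs from miR-29a-3p by C10U alone. miR-29b-3p differs from miR-29a-3p by C10U, G18A, U21G and A22U over the 22 bases compared, and from miR-29c-3p by G18A, U21G and A22U. Mir29b-1 and Mir29b-2 give an identical mature 3p strand.

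The 5p arms, the opposite strands of the hairpins, each occur in a single microRNA gene and share no seed with one another.
miR-29a-5p: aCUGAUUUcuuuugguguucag
miR-29b-1-5p: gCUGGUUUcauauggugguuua
miR-29b-2-5p: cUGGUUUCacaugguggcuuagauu
miR-29c-5p: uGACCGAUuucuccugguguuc
The seed of miR-29b-2-5p also occurs in Mir6338, a gene outside the family.

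The genes lie in 2 clusters. Mir29a (chr6:31062660-31062747) and Mir29b-1 (chr6:31063023-31063093) are 275 bases apart on the minus strand of chromosome 6. Neither lies inside an annotated host gene, although Mir29b-1 overlaps the noncoding gene Gm27019 by 2 bases. The noncoding gene Lncpint lies on the same strand, and 19471 bases separate its 3' end from Mir29b-1. Mir29b-2 (chr1:195037040-195037120) and Mir29c (chr1:195037547-195037634) are 426 bases apart on the plus strand of chromosome 1. Both overlap an annotated exon of the noncoding gene A330023F24Rik, and on the other strand both lie inside the 3' UTR of 1 transcript of Cd46, a gene of a complement-regulating membrane protein. On the opposite strand each of the 4 genes had 0 counts in both libraries, which allows up to 3 counts, and the counts with and without regard to strand were identical for every member.

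Read assignment treats the members unequally, because reads that fitted several loci were given to no gene. Replicate 1 lost 42.4% of its reads in this way and replicate 2 lost 43.2%. Mir29a shared none of its 71 windows of 18 bases with any other microRNA gene. Mir29c shared 5 of 71, but none of the 5 windows inside its 3p arm. Mir29b-1 shared 11 of 54 windows and Mir29b-2 shared 8 of 64, and for both genes all 6 windows inside the 3p arm were shared. The longest run common to the 29b hairpins was 25 bases and covers the whole mature 3p strand. It is in capitals in the ends of both hairpins below, and the lower case bases flank it.
Mir29b-1 (chr6:31063023-31063051, minus strand): ugUCUAGCACCAUUUGAAAUCAGUGUUcu
Mir29b-2 (chr1:195037087-195037116, plus strand): uaUCUAGCACCAUUUGAAAUCAGUGUUuua
A read of the annotated miR-29b-3p therefore fits both loci, whereas the 5p arms fit a single microRNA gene. The counts of Mir29b-1 and Mir29b-2 are lower limits for these genes, and the level of miR-29b-3p is not known from these tables. Loci outside the annotated microRNA genes were not searched. Counts were per gene, so the arms were not separated.

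**Figure D1:**
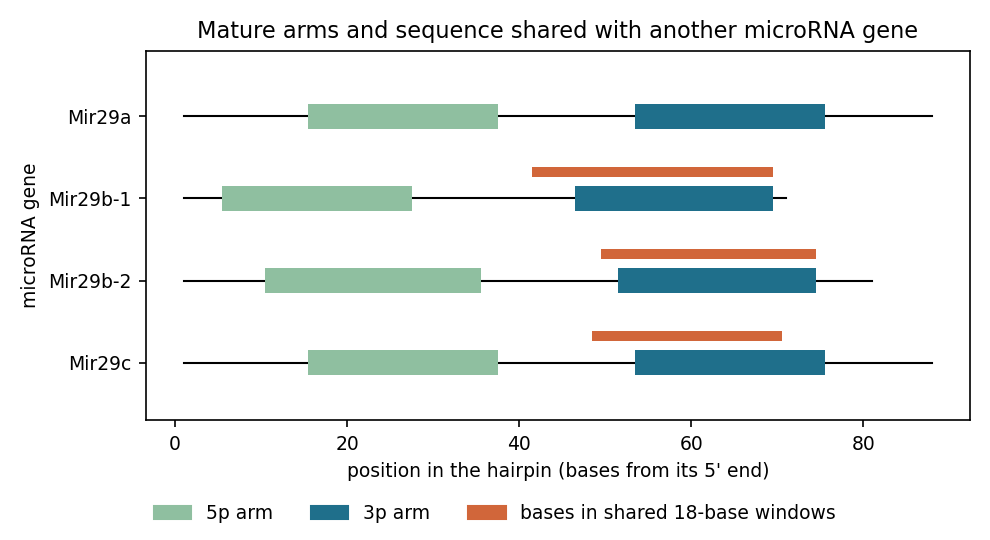
Hairpins of the 4 mir-29 genes drawn to scale, with position in bases from the 5' end on the horizontal axis, the 5p and 3p arms as boxes and, above each, the bases covered by 18-base windows that another microRNA gene also holds. The shared bases cover the whole 3p arm of Mir29b-1 and Mir29b-2, part of that of Mir29c and none of Mir29a.

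Among reads unique to a locus, Mir29a had the most counts of the 4 members and stood high among all microRNA genes. Genes whose mature strand is made from several loci are undercounted in such a ranking, miR-29b-3p among them. Mir29a had 141135 counts in replicate 1 and 61379 in replicate 2, or 33711 and 21331 CPM (counts per 1e+06 assigned counts), a mean of 27521 ± 8755 CPM (SD, n = 2). It ranked 11 of 2202 genes in replicate 1 and 13 in replicate 2. Mir29c had 9594 and 2703 counts, or 2292 and 939 CPM, a mean of 1615 ± 956 CPM (SD, n = 2), and ranked 37 and 65. Both Mir29a values lay above both Mir29c values. A read covers most of a mature arm, so counts were not divided by the length of the hairpins, which ran from 71 to 88 bases.

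The 29b genes stood far lower, as counted from reads unique to a locus. Mir29b-1 had 200 and 129 counts, or 47.8 and 44.8 CPM, a mean of 46.3 ± 2.08 CPM (SD, n = 2), and ranked 171 and 170. Mir29b-2 had 209 and 76 counts, or 49.9 and 26.4 CPM, a mean of 38.2 ± 16.6 CPM (SD, n = 2), and ranked 164 and 199. By mean CPM of reads unique to a locus the order was Mir29a, Mir29c, Mir29b-1 and Mir29b-2, but both values of Mir29b-1 lay between those of Mir29b-2, so these 2 genes did not differ beyond their spread. Replicate 1 put Mir29b-2 above Mir29b-1 and replicate 2 put it below.

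**Figure D2:**
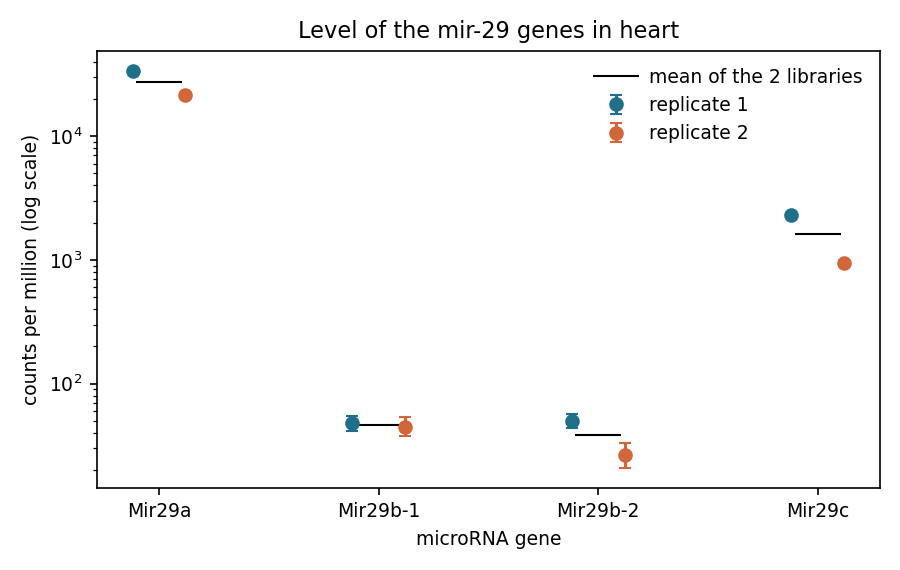
Level of each mir-29 gene in CPM on a log axis, with a point for each library, exact 95% intervals that cover counting error only, and a line at the mean. Mir29a stands near 27521, Mir29c near 1615, and the 29b genes between 26.4 and 49.9.

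Within the family, the Mir29a share was 93.4% in replicate 1, with an exact 95% interval (Clopper-Pearson) of 93.3 to 93.5, while replicate 2 had 95.5% (95.3 to 95.6). Mir29c supplied 6.35% (6.23 to 6.47) and 4.20% (4.05 to 4.36). The 29b genes together supplied 0.271% (0.245 to 0.298) and 0.319% (0.277 to 0.366). These shares rest on reads unique to a locus, so the part of miR-29b in the mature family is not among them. The intervals cover counting error alone: without molecular identifiers, several reads can stem from 1 molecule.

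Mir29a and Mir29c, whose mature 3p strands are each found in a single microRNA gene, can be set against each other within a library without any scaling. Mir29a had 14.7 counts for each count of Mir29c in replicate 1 and 22.7 in replicate 2. The odds ratio of Mir29c to Mir29a, replicate 2 against replicate 1, was 0.648 (exact conditional 95% interval 0.620 to 0.677), so the make-up of the family differed between the libraries beyond counting error. This pair and the pair of 29b genes were chosen after their values were seen. Whether reads with a mismatch were assigned is not given in the sources used here, and a single base separates the mature strands of Mir29a and Mir29c.

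Counted from reads unique to a locus, the ratio of the 2 genes of the chromosome 6 cluster differed between the libraries beyond counting error. Counts of Mir29b-1 and Mir29b-2 leave out reads of the mature strand that both genes make. Those of Mir29a and Mir29c can hold reads of both mature arms. Whether the genes of a cluster keep a fixed ratio in the tissue was therefore not tested. There, replicate 1 had 1.42 Mir29b-1 counts per 1000 of Mir29a (1.23 to 1.63, exact 95% interval) while replicate 2 had 2.10 (1.75 to 2.50), an odds ratio of 1.48 (1.18 to 1.86). In the chromosome 1 cluster, Mir29b-2 had 21.8 counts per 1000 of Mir29c (18.9 to 25.0) and 28.1 (22.1 to 35.3), an odds ratio of 1.29 whose interval, 0.976 to 1.69, includes 1. The ratio of Mir29b-2 to Mir29b-1 was 1.045 in replicate 1 (0.857 to 1.27) and 0.589 in replicate 2 (0.438 to 0.788), an odds ratio of 0.564 (0.394 to 0.806). In both pairs that span the clusters, the chromosome 1 gene was lower relative to the chromosome 6 gene in replicate 2 than in replicate 1.

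**Figure D3:**
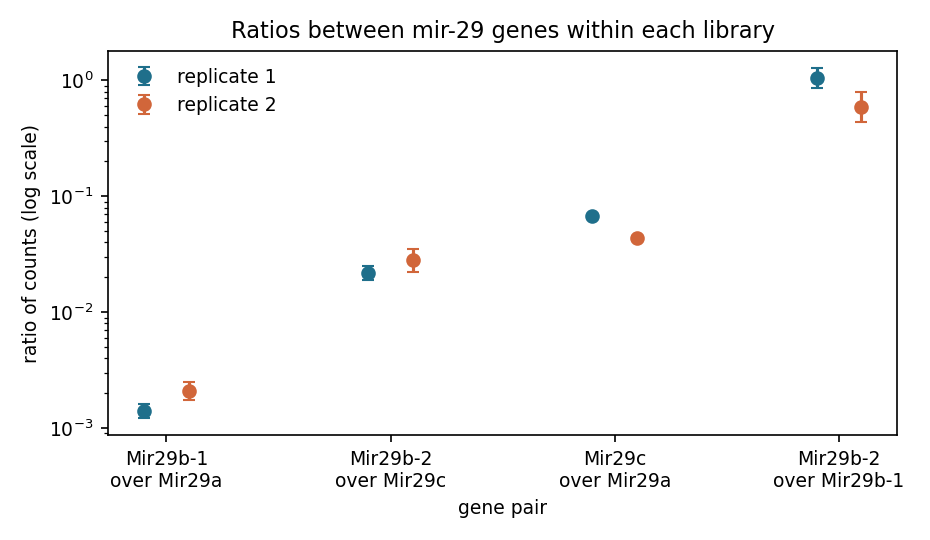
Ratio of counts for 4 pairs of mir-29 genes in each library, on a log axis, with exact 95% intervals of counting error. Counts hold only reads unique to a locus, so those of Mir29b-1 and Mir29b-2 leave out the mature strand that both genes make. The intervals of the libraries do not overlap for Mir29b-1 over Mir29a, Mir29c over Mir29a and Mir29b-2 over Mir29b-1, and they overlap for Mir29b-2 over Mir29c.

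Between the libraries, 3 of the 4 members were lower in replicate 2 and none was higher, by exact two-sided binomial tests on counts given TMM-scaled totals, with Benjamini-Hochberg adjustment over all 309 genes tested. Over all genes tested, 28.2% were called lower, 35.3% higher and 63.4% in either direction, so being called is common in this comparison. Mir29c was 2.32-fold lower in replicate 2 (interval 2.22 to 2.42; log2 ratio -1.21). Mir29b-2 was 1.80-fold lower (1.38 to 2.37; log2 ratio -0.85), with an exact binomial adjusted p of 1.49e-05. Mir29a was lower by a log2 ratio of -0.59, a fold between 1.49 and 1.52. For Mir29a and Mir29c the p-value was too small for the arithmetic of the test to represent. Mir29b-1 had a log2 ratio of -0.02 (interval -0.35 to 0.31) and did not pass, with an exact binomial adjusted p of 0.98. At its 200 and 129 counts the interval leaves room for a 1.28-fold fall.

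Differences of these sizes also occurred in other genes, though Mir29c, Mir29b-2 and Mir29a lay above the median in size, Mir29c the furthest. The median absolute log2 ratio over the 309 genes was 0.51, and 44 genes had a larger one than Mir29c, 78 than Mir29b-2, 136 than Mir29a and 302 than Mir29b-1. The median log2 ratio was 0.01 over all genes. With DESeq2 size factors that median was -0.14, and 55.4% of the called genes were lower, in place of 44.4%. The share of tested genes called was 60.2% (33.3% lower, 26.9% higher) with these size factors and 63.1% (31.4% lower, 31.7% higher) with plain totals. It was 30.2% of 709 genes without the filter on low counts (13.5% lower, 16.6% higher) and 60.4% of 288 genes without regard to strand (28.8% lower, 31.6% higher). With DESeq2 size factors the log2 ratio of Mir29a was -0.74, of Mir29b-1 -0.17, of Mir29b-2 -0.99 and of Mir29c -1.36, all on the same side of the test as with TMM.

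**Figure D4:**
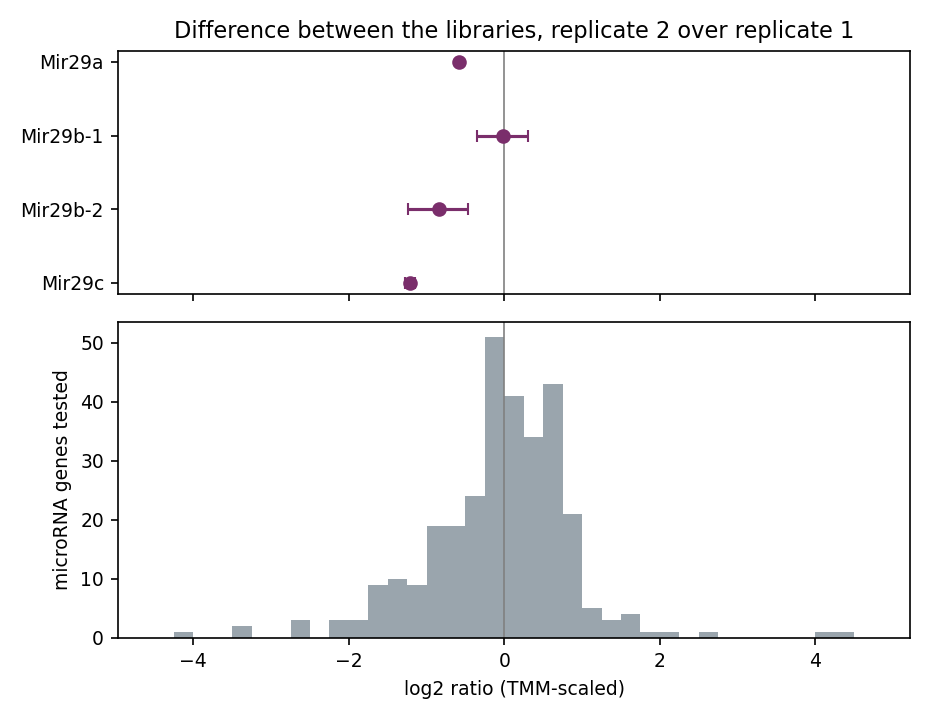
Top, log2 ratio of replicate 2 over replicate 1 for each mir-29 gene with its exact 95% interval; bottom, the number of microRNA genes tested in each 0.25-wide step of the same ratio. Mir29c, Mir29b-2 and Mir29a lie to the left of 0 and inside the spread of the 309 genes, and the interval of Mir29b-1 spans 0.

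Lists of cell type markers moved between the libraries as well, and their part in the mir-29 differences was not tested. Over all 309 genes tested, 28.2% were called lower, 35.3% higher and 63.4% in either direction. With so few genes per list, the counts of called genes below do not by themselves show a shift of a cell type. The summed share of assigned counts was lower in replicate 2 for the cardiomyocyte list (0.654% to 0.479%, with 3 of 4 tested genes lower), the fibroblast list (0.531% to 0.373%, 1 of 3 lower and 1 higher, Mir199a-1 at 0) and the erythroid list (0.175% to 0.133%, 2 of 3 lower and 1 higher). The endothelial list went from 17.6% to 5.00%, with Mir126a lower and 2 of 3 genes higher. Smooth muscle (3.29% to 5.63%, 2 of 2 higher), leukocyte (0.600% to 0.835%, 5 of 5 higher) and hepatocyte (0.00191% to 0.00573%, 1 of 1 higher) lists held more in replicate 2. The neuronal list held 0.0358% and 0.0234%, with 3 of 3 tested genes lower. Of its 6 untested genes, Mir9-2 and all 3 Mir124a genes were at 0, Mir9-1 had 0 and 3 counts, and Mir9-3 had 3 and 63 counts, more in replicate 2. The cardiomyocyte markers Mir499 (4787 and 3618 CPM) and Mir208a (1638 and 1074 CPM) were present in both libraries, and Mir208b had 175 and 64 counts. Mir1a-1 (9 and 9 counts), Mir133a-1 (6 and 3) and Mir133a-2 (8 and 7) were too low to be tested, and Mir1a-2 had 304 and 194 counts. Mir199a-2, in the fibroblast list, had 20 and 2 counts and was not tested. The Mir1a, Mir133a, Mir9, Mir124a, Mir128, Mir199a and Mir199b genes each belong to microRNAs made from several loci. Their counts, zeros included, and the shares of these lists therefore hold only reads unique to a locus. In whole tissue, fewer cells of a type and less RNA per cell cannot be told apart.

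The genes nearest to each member in level over both libraries, by distance in log2(CPM + 0.5), belonged to other families. Mir29a was nearest to Mir99a (37147 and 30158 CPM, distance 0.52) and Mir26b (28360 and 31445 CPM, distance 0.61). Mir29c was nearest to Mir15b, of a family known to restrain cardiomyocyte division (1766 and 964 CPM, distance 0.38) and to Mir214 (3091 and 976 CPM, distance 0.44), a microRNA also made by fibroblasts. Mir29b-1 was nearest to Gm26117 (47.3 and 44.5 CPM, distance 0.02) and Mir500 (46.1 and 40.3 CPM, distance 0.16). Mir29b-2 was nearest to Mir383 (53.7 and 26.1 CPM, distance 0.11) and Mir3058 (48.0 and 28.5 CPM, distance 0.12). With 2 libraries, likeness says only that 2 levels were close.

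The shared seed has matches in the UTRs of many mRNAs that the family is known to target. The reverse complement of seed bases 2 to 8, TGGTGCT, was searched on the mRNA strand in the longest annotated 3' UTR of each of 20829 protein-coding genes of release M21, of which 13.2% held it. Among 24 known targets chosen by name, 21 held at least 1 match and 9 held 2 or more, with 51 matches in all, 22 of them followed by an A that can face the first base of the microRNA. The list was drawn from genes known as targets, partly through such matches, so its count is not independent evidence. A match is a description of the sequence and not a measured site.

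Of the 9 collagen genes listed, 8 held a match, and Col1a2 held none in the UTR searched. Col5a1, the chain that seeds collagen fibrils, held 4 matches in 2498 bases. Of UTRs of like length (the shorter at least 80% of the longer), its own included, 0.0715% held at least as many. The other shares of UTRs of like length were counted in the same way. Col5a3 held 3 in 785 bases (0.149% of UTRs of like length), and Eln, the gene of elastin, held 3 in 1188 bases (0.163%). Fbn1, the gene of the microfibril protein fibrillin, held 2 in 992 bases (0.744%). The main fibrillar collagens of the heart, Col1a1 and Col3a1, held 1 each, as 13.1% and 9.51% of UTRs of like length held at least 1. Sparc, a collagen-binding matrix protein, and Hbp1, a transcription factor, held none. Outside the matrix, Tet3, Tet1, Tet2 and Dnmt3a, enzymes that add or oxidise DNA methylation, held 8, 7, 5 and 5 matches. Their UTRs were longer, at 5669, 7962, 3058 and 6696 bases. Of UTRs of like length, 43.7%, 51.0%, 26.7% and 46.3% held at least 1 match. Shares of 0.130%, 0.325%, 0.0833% and 0.781% held at least as many as the gene, whose own UTR is counted in each share.

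Matches from the principal fibrillar collagens, a collagen with several matches and both elastic fibre genes are shown 5' to 3' on the mRNA strand, with the match in capitals and the bases before and after it in lower case.
Col1a1 (chr11:94952516-94952545, plus strand): gggtggggtgggaaggaatttcTGGTGCTa
Col3a1 (chr1:45348960-45348989, plus strand): ttccaacttcaaaatgtctcaaTGGTGCTa
Col5a1 (chr2:28038012-28038041, plus strand): aattttttacacttgtctcttgTGGTGCTa
Eln (chr5:134703736-134703765, minus strand): tgactcgcgacctcatcaacgtTGGTGCTa
Fbn1 (chr2:125301173-125301202, minus strand): cagtaggtttctgttgtctgttTGGTGCTa
The capitals are the reverse complement of the seed printed above for all 3 mature strands, so the match does not separate miR-29a, miR-29b and miR-29c. All 5 matches shown are followed by an A, which does not hold for all matches of these genes. An A followed 2 of the 4 matches in Col5a1, 2 of the 3 in Eln and 1 of the 2 in Fbn1.

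Other microRNAs linked to cardiac fibrosis split in both directions between the libraries, as genes at large did. Of 9 fibrosis-promoting genes, all tested, 4 were higher and 3 lower in replicate 2 and 2 did not pass. Over all 309 genes tested, 35.3% were called higher and 28.2% lower. The median log2 ratio of the list was -0.06 beside 0.01 over all genes tested. Of the 9 listed genes, 6 are also in a marker list above. The lower ones of the list numbered 5 with DESeq2 size factors and with plain totals. Mir199b, 1 of the 2 that did not pass, carries the limit on reads unique to a locus given above. Mir34a, a p53-induced microRNA, had 6015 and 3681 CPM (log2 ratio -0.64). Mir155, of activated immune cells, had 3321 and 4122 CPM (log2 ratio 0.38), and Mir21a, which favours fibroblast survival, had 2199 and 2749 CPM (log2 ratio 0.39). Mir214 had a log2 ratio of -1.59. Both Mir34a and Mir214 were thus lower in replicate 2 together with Mir29a and Mir29c, and Mir155 and Mir21a were higher.

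Of 20 fibrosis-restraining genes, 14 passed the filter on low counts. Of these 14, 6 were higher, 6 lower and 2 did not pass. Over all 309 genes tested, 35.3% were called higher and 28.2% lower. The median log2 ratio of the 14 was 0.04. Of the 20, 4 are also in the cardiomyocyte list. Mir26b had 28360 and 31445 CPM (log2 ratio 0.22), a level like that of Mir29a with the opposite direction. Mir30d (17257 and 14296 CPM, log2 ratio -0.20) and Mir30a (13572 and 11806 CPM, log2 ratio -0.13), which target connective tissue growth factor, were lower by less than Mir29a. With DESeq2 size factors and plain totals, 5 of the list were higher and 6 lower. Mir24-2 (275 and 109 CPM, log2 ratio -1.26) and Mir26a-1 (4.78 and 91.1 CPM, log2 ratio 4.32) differed by more than 2-fold. Like the 29b genes, they belong to microRNAs made from several loci, so the same limit on unique reads holds for them. It also holds for the tested genes Mir24-1, Mir26a-2, Mir30c-1, Mir30c-2 and Mir1a-2, so the split of this list rests partly on such counts. Among the untested genes it holds for Mir1a-1, Mir133a-1, Mir133a-2, Mir19b-1 and Mir19b-2.

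**Figure D5:**
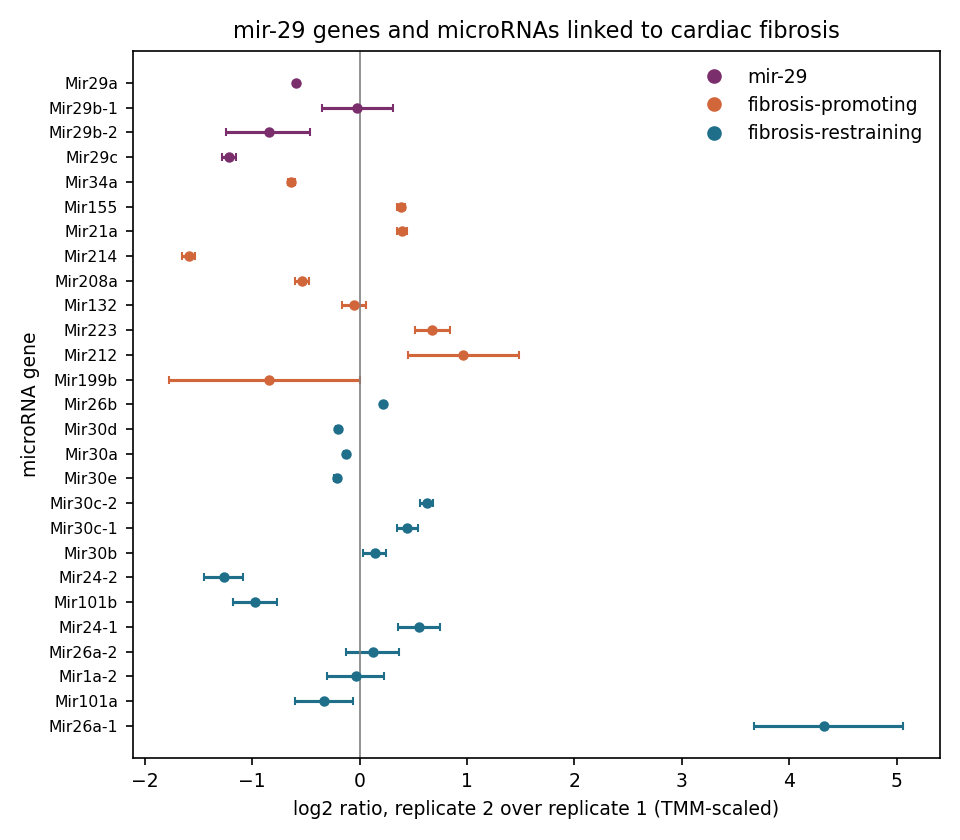
Log2 ratio of replicate 2 over replicate 1, with exact 95% intervals, for the mir-29 genes and for the tested genes of the fibrosis-promoting and fibrosis-restraining lists, each list ordered by level. Points lie on both sides of 0 in both lists, with Mir214 at -1.59 and Mir26a-1 at 4.32 as the outermost.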

How the data were processed

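The deposited tables give raw read counts per microRNA gene for each of 2 heart libraries, on build mm10 with annotation release M21, per the deposited readme files. For the aligner and counter: not given in the sources used here. Counts on the gene's own strand were analysed. The 4 rows of reads assigned to no gene were left out of totals and tests. Assigned counts came to 4186560 of 13233055 reads in replicate 1 (31.6%) and 2877511 of 8930289 in replicate 2 (32.2%), and the upper limit behind a 0, 3 counts, equals 0.717 and 1.04 CPM. Unmapped reads made up 19.0% and 17.5%, and reads outside genes 6.94% and 7.11%. CPM were computed over assigned counts.

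Scaling used TMM and filterByExpr (minimum count 10) in edgeR 4.0.16 and R 4.3.3, with DESeq2 1.42.0 size factors as an alternative. Tests were exact binomial tests in scipy 1.17.1 with a threshold of 0.05 on the adjusted p, and intervals were exact at 95%. With 1 group of 2 libraries no quasi-likelihood test was possible. The libraries were no duplicates (chi-square 830 per degree of freedom over genes). Simulated counts for this comparison (313 genes) held counting error alone (Poisson draws), around the mean of the 2 libraries. On them the steps called 76 of 98 genes changed 1.5-fold, 88 of 94 changed 2-fold and 8 of 121 unchanged ones. The real libraries differed by far more than counting error, so these rates are not error rates for the real data.

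The members and lists were chosen with earlier results of these data known. Named were the 4 members, the 2 nearest genes of each, and from the fibrosis lists the 3 most abundant and those called with a log2 ratio beyond 1, besides host and neighbour genes; other genes were named after their values were seen. Marker lists covered cardiomyocyte, endothelial, smooth muscle, fibroblast, erythroid, leukocyte, neuronal and hepatocyte microRNAs. Alternatives covered scaling, the filter, the strand column, the denominator and each replicate left out.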

Additional observations from a re-analysis of the deposited data

How the results depend on the processing

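All 16 alternative values of the member differences (DESeq2 size factors, plain totals, no filter beyond 1 count, counts without regard to strand) kept their direction and their side of the threshold. They ran from -0.74 to -0.59 for Mir29a, -0.17 to -0.02 for Mir29b-1, -0.99 to -0.85 for Mir29b-2 and -1.36 to -1.21 for Mir29c (log2). Part of this agreement was fixed in advance. Leaving out the filter changes the adjusted p and not the log2 ratios. Without regard to strand the members' counts were identical, so only a common shift of scaling differed. The adjusted p of the exact binomial test ran from 0.39 to 1 for Mir29b-1 and from 2.77e-07 to 3.27e-05 for Mir29b-2. The family's share of assigned counts, 2.92%, became 0.931% with all reads as the denominator and 3.99% without regard to strand, since both settings change the total and not the members' counts. With each replicate left out in turn, Mir29b-1 ranked 3 to 4 and Mir29b-2 ranked 3 to 4 of the 4 members. The fibrosis-promoting genes lower in replicate 2 numbered 3, and 5 with DESeq2 size factors and with plain totals; the cause was not tested. The number of genes called ran from 174 to 214 around 196. No paired analysis was possible because the series has 1 group. The low counts of the 29b genes limit what can be said of their differences.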

Other observations

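Across the microRNA genes of the RefSeq table, 94 have a mature sequence that another gene also has, as Mir29b-1 and Mir29b-2 do. Their median mean level was 1.06 CPM and the highest was 4903 CPM. The other 924 genes had a median of 0.239 CPM and reached 110547 CPM. Of the 94, 47 (50.0%) had a mean of 1 CPM or more, against 34.8% of the others. These values come from reads unique to a locus, and the difference between the classes was not tested.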
